A study of Rattus norvegicus with 21 samples.

Results

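The large-conductance calcium-activated potassium (BK) channel gene Kcnma1 and the L-type calcium channel gene Cacna1c were followed through RNA sequencing of the full-thickness rat urinary bladder after spinal cord injury (SCI). These 2 genes, out of 32754 in the count table, were chosen by name and are read by the Ensembl identifiers ENSRNOG00000005985 (Kcnma1) and ENSRNOG00000007090 (Cacna1c). The count table holds identifiers only and the gene table used here carries no Ensembl identifiers, so both assignments were taken as given and could not be checked against a gene map. Both genes passed the filter on low counts.

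All rats were wild-type male Sprague Dawley animals. The SCI groups had a complete transection of the cord at T8, made at 6 to 7 weeks of age, and were examined 2, 8 or 16 weeks later. Uninjured controls were taken at 0, 2, 8 and 16 weeks, and the labels describe them as matched, with no stated age and no sham operation named. The study calls the controls of the injured groups age-matched. These weeks are times in the course, counted for the SCI groups from the injury. The number in the title codes of the controls rises by as much as the week does, as an age in weeks would. The labels do not say what this number counts. The 7 groups held 3 libraries each, 21 in all, with total counts from 8087726 to 15472537 per library. The series describes its time course by the weeks after injury, and the 3 controls of 0 weeks are listed in addition to it. Because the whole bladder wall was used, RNA of the smooth muscle (the detrusor) was mixed with that of urothelium, connective tissue, nerves and vessels. Marker genes of these tissues could not be identified by symbol, and the share of smooth muscle in each wall was not measured.

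In detrusor smooth muscle, Cacna1c encodes the pore-forming subunit of the L-type calcium channel, which opens on depolarization and carries the calcium current of the action potential that drives contraction. Kcnma1 encodes the pore-forming subunit of the BK channel, which opens on depolarization and raised intracellular calcium and lets potassium out of the cell. This outward current repolarizes the membrane and closes the calcium channels, so that the BK channel acts as a brake on detrusor excitability. Both channels are also present in nerves.

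The count table used here holds no sequence, so the 250 bases upstream of the annotated start of each gene are shown from RefSeq (build GRCr8) to compare the promoters of the channel pair. The counts were made on another build, Rnor_6.0. RefSeq lists 36 transcripts of Kcnma1 and 32 of Cacna1c, and each window covers a single start. Capitals mark matches to the motifs named below. Kcnma1 lies at chr15:351675-351924, plus strand, and Cacna1c at chr4:154051749-154051998, minus strand.
Kcnma1: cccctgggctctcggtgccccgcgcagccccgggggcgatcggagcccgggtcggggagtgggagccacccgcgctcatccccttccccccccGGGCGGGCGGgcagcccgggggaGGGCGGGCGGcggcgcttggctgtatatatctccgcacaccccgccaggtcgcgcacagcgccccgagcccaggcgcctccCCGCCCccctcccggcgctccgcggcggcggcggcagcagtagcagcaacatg
Cacna1c: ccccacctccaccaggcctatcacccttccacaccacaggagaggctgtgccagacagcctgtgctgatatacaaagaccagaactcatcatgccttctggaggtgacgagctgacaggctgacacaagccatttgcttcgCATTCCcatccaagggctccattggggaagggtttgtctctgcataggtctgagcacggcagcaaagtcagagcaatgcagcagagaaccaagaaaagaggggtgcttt

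The windows were unlike in base composition. The Kcnma1 window was 79.6% G or C with 33 CG dinucleotides, at or above 98.9% of the 33469 rat promoter windows of this length. The Cacna1c window was 54.4% G or C with 3 CG dinucleotides, near the median of 51.2%. Both strands were searched. GGGCGG, the GC box, occurred 5 times in the Kcnma1 window, in 2 overlapping pairs and once on the opposite strand, and nowhere in that of Cacna1c, against 30.5% of all windows with at least 1 match. CATTCC, the MCAT element, occurred once in the Cacna1c window, from 109 to 104 bases before the start (12.1% of windows), and not in that of Kcnma1. Neither window held TATAAA (12.9% of windows), the cyclic AMP response element TGACGTCA (1.59%), the AP-1 element TGANTCA (6.34%) or the CArG box (1.5%), a serum response factor motif of smooth muscle genes. A match or its absence describes these letters in these windows only.

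Kcnma1 was lower in SCI bladders than in controls of the same week at every time examined, and the difference averaged over the weeks passed the test. Levels are given in CPM, which divides counts by library size, with TMM factors that correct for library composition. At 2 weeks Kcnma1 was 163, 140 and 128 CPM in the 3 controls and 97.3, 93.5 and 72.2 CPM in the 3 SCI bladders. At 8 weeks the controls were at 211, 225 and 249.8 CPM and the SCI bladders at 80.6, 145.7 and 93.3 CPM. At 16 weeks the controls were at 204, 228 and 205 CPM and the SCI bladders at 118, 138 and 122 CPM. In all 3 weeks the highest SCI library lay below the lowest control of that week. Of all 15225 tested genes, 2.08% showed this in each of the 3 weeks, and the share was 8.43% at 2 weeks, 14.7% at 8 weeks and 18.3% at 16 weeks taken singly. In a bulk sample, fewer cells of a type and less RNA per cell cannot be told apart.

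Differences were tested with edgeR's quasi-likelihood test on all tested genes, and a gene was called when its Benjamini-Hochberg adjusted p was under 0.05. The log2 fold change of Kcnma1 was -0.72 at 2 weeks (SE 0.23, edgeR adjusted p = 0.414). It was -1.10 at 8 weeks (SE 0.23, edgeR adjusted p = 0.0147) and -0.76 at 16 weeks (SE 0.23, edgeR adjusted p = 0.0545). Of these only the 8-week difference was called, and 0%, 5.14% and 3.24% of tested genes were called lower at 2, 8 and 16 weeks. Leaving out SCI 8 weeks replicate 1 took the genes called lower at 8 weeks from 782 to 29. Leaving out SCI 16 weeks replicate 1 took those at 16 weeks from 493 to 13. At 2 weeks edgeR called 0 genes of any kind (1016 at unadjusted p under 0.05, and 60 by DESeq2). Unadjusted, the p of Kcnma1 in edgeR was 0.00547, 0.00013 and 0.00361 in order of week, and 1.48% of tested genes were lower with an unadjusted p under 0.05 in each of the 3 weeks.

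Averaged over the 3 weeks, Kcnma1 in SCI bladders was at 55.2% of the control level (log2 fold change -0.86, SE 0.13, edgeR adjusted p = 0.000631), where 12.3% of tested genes were called lower. A two-sided exact permutation test of log2 CPM, which exchanged SCI and control labels within weeks, gave a mean difference of -0.87 with p = 0.00025, the smallest p that its 8000 arrangements allow. This is the first of 3 such tests, with those of Cacna1c and of the ratio of the genes, and their p-values are unadjusted. Of the tested genes, 390 (2.56%) had an averaged log2 fold change as low as that of Kcnma1 or lower. The 8-week call was lost without SCI 8 weeks replicate 1 (edgeR adjusted p = 0.0895) or replicate 3 (0.0761), and the 16-week difference was called by DESeq2 (adjusted p = 0.0197) and without the 0-week controls (edgeR adjusted p = 0.0156), control 0 weeks replicate 1 (0.0307) or 2 (0.0164), or SCI 8 weeks replicate 1 (0.0458) or 2 (0.0310). In that order, these 16-week runs called 1673, 2086, 1547, 1729, 955 and 1291 genes in all, against 855 in the main fit. With other single libraries left out, the edgeR adjusted p of Kcnma1 at 16 weeks rose to as much as 0.166. The averaged difference was called in every alternative run, with edgeR or DESeq2 adjusted p from 4.93e-08 to 0.00199.

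**Figure D1:**
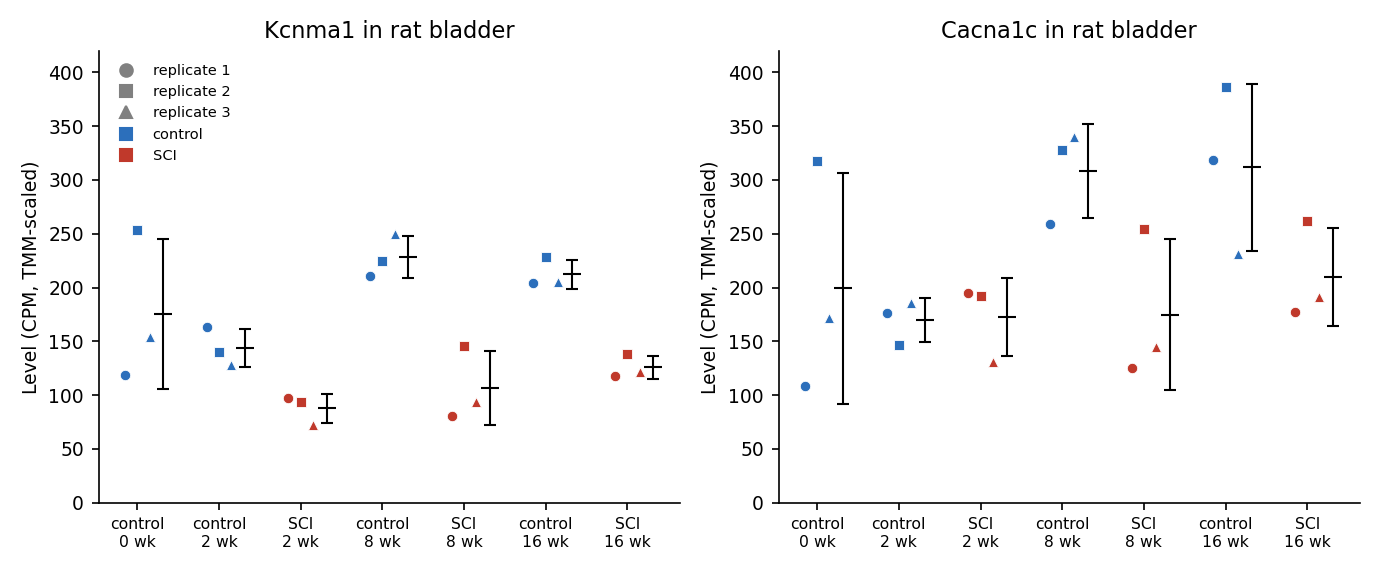
Levels of Kcnma1 (left) and Cacna1c (right) in CPM, TMM-scaled, by group (weeks of the time course), with controls in blue and SCI in red. Points are the 3 libraries of a group, shaped by replicate number, and bars give mean and SD. The Kcnma1 points of SCI bladders, from 72.2 to 145.7 CPM, lie below the controls of their own week, while those of Cacna1c overlap their controls at 2 and 16 weeks.

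Cacna1c overlapped between SCI and control bladders at 2 and 16 weeks and lay lower after SCI at 8 weeks, where the difference was not called. It was 176, 146 and 186 CPM in 2-week controls and 195, 192 and 131 CPM in SCI bladders of that week, and only SCI replicate 3 lay below the controls. At 8 weeks the controls were at 259, 327 and 339.5 CPM and the SCI bladders at 125, 255 and 145 CPM, without overlap, although SCI replicate 2 came close to the lowest control. Of all tested genes, 14.7% lay below their controls without overlap at 8 weeks. At 16 weeks the controls were at 318, 386 and 231 CPM and the SCI bladders at 177, 262 and 191 CPM, and SCI replicate 2 lay above control replicate 3.

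The log2 fold change of Cacna1c was 0.03 at 2 weeks (SE 0.32, edgeR adjusted p = 0.998), with a 95% interval from -0.64 to 0.70 that is wide enough to hold the change seen in Cacna1c at 16 weeks. It was -0.82 at 8 weeks (SE 0.32, edgeR adjusted p = 0.106) and -0.57 at 16 weeks (SE 0.32, edgeR adjusted p = 0.258), neither of which was called. The 8-week difference was called without SCI 8 weeks replicate 2 (log2 fold change -1.19, edgeR adjusted p = 0.0239), without control 0 weeks replicate 2 (0.0416) and without the 0-week controls as a group (0.0362). In that order, these runs called 2585, 2175 and 2466 genes in all at 8 weeks, against 1281 in the main fit.

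Averaged over the 3 weeks, Cacna1c was at 73.0% of the control level (log2 fold change -0.45, SE 0.18, edgeR adjusted p = 0.0808), short of the threshold. The exact permutation test gave a mean difference of -0.48 in log2 CPM with p = 0.0225 (two-sided, unadjusted). Of the tested genes, 10.5% had an averaged log2 fold change as low or lower. The averaged difference was called without the 0-week controls (edgeR adjusted p = 0.0274), and also without control 0 weeks replicate 1 (0.0419) or replicate 2 (0.0317) or SCI 8 weeks replicate 2 (0.0203). In that order, these runs called 4395, 4131, 4072 and 4368 genes in all, against 3454 in the main fit.

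**Figure D2:**
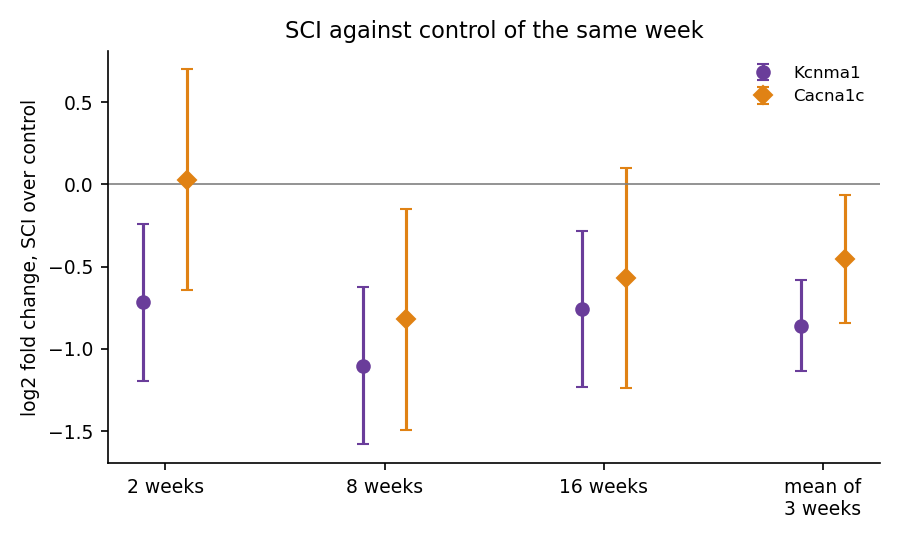
Log2 fold change of SCI over control of the same week for Kcnma1 (purple circles) and Cacna1c (orange diamonds) at 2, 8 and 16 weeks and averaged over the weeks, with unadjusted 95% intervals from the edgeR fit. Kcnma1 lies between -1.10 and -0.72 and each of its intervals is below 0, whereas the intervals of Cacna1c include 0 at 2 and 16 weeks.

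The size of the SCI effect was not shown to differ between weeks for either gene. The SCI effect on Cacna1c was lower by 0.85 on the log2 scale at 8 than at 2 weeks (interaction log2 difference -0.85, SE 0.45, edgeR adjusted p = 0.614, unadjusted p = 0.0761), and edgeR called 0.0197% of tested genes in that comparison. For Kcnma1 the same interaction was -0.39 (SE 0.32, edgeR adjusted p = 0.736). The interactions of 16 with 2 weeks were -0.04 (SE 0.32) for Kcnma1 and -0.60 (SE 0.45) for Cacna1c, and those of 16 with 8 weeks were 0.35 (SE 0.32) and 0.25 (SE 0.45), with edgeR adjusted p from 0.720 to 0.979 over these 4 comparisons. Leaving out SCI 8 weeks replicate 1 or 2 moved the interaction of 8 with 2 weeks for Kcnma1 to -0.21 or -0.68, and that of 16 with 8 weeks to 0.19 or 0.64. For Cacna1c, the interaction of 16 with 8 weeks was lowest when SCI 16 weeks replicate 2 was left out (0.053) and highest when this was done with SCI 8 weeks replicate 2 (0.62). It also moved by more than 1.5 times without control 16 weeks replicate 2 (0.43) or 3 (0.070) or SCI 8 weeks replicate 1 (0.061) or 3 (0.14).

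Whether the channels changed in proportion was asked with the ratio of Kcnma1 to Cacna1c counts within each library, which does not depend on library scaling. Since the genes differ in length, only changes of this ratio are read, not its level. At 2 weeks there were 0.927, 0.96 and 0.691 Kcnma1 counts per Cacna1c count in the controls and 0.499, 0.487 and 0.551 in the SCI bladders. At 8 weeks the ratios were 0.816, 0.687 and 0.736 in controls and 0.644, 0.572 and 0.645 in SCI bladders. At 16 weeks they were 0.642, 0.591 and 0.887 in controls and 0.664, 0.528 and 0.638 in SCI bladders. The SCI values were lower without overlap at 2 and 8 weeks and overlapped the controls at 16 weeks. How often the ratios of other gene pairs separate in this way was not counted.

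The log2 ratio was lower in SCI bladders by a mean of 0.40 within weeks (difference -0.40, two-sided exact permutation p = 0.00275, unadjusted), so Kcnma1 was lower relative to Cacna1c after SCI. By week the difference was -0.73 at 2 weeks, -0.27 at 8 weeks and -0.20 at 16 weeks. The exact permutation p was 0.1, 0.1 and 0.5, and 0.1 is the smallest that 3 against 3 libraries allow. Whether the ratio difference itself changed between weeks was not tested. With each of the 18 libraries left out in turn, the mean difference stayed between -0.45 and -0.34 (exact permutation p from 0.00075 to 0.00875).

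**Figure D3:**
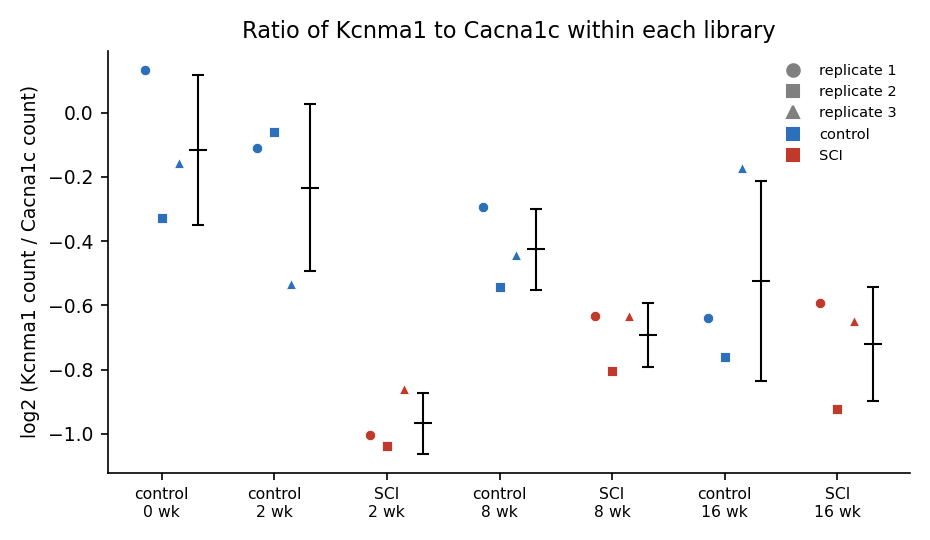
Log2 ratio of Kcnma1 to Cacna1c counts in each library by group, controls in blue and SCI in red, with mean and SD as bars. The 2-week SCI bladders, from -1.04 to -0.86, lie lowest together with SCI 16 weeks replicate 2 at -0.92, and their controls lie from -0.53 to -0.06.

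Controls of successive weeks were compared to see how both genes differed over the time course without injury. Kcnma1 averaged 175 ± 69.6 CPM (SD, n = 3) at 0 weeks, 144 ± 17.8 CPM at 2 weeks, 229 ± 19.6 CPM at 8 weeks and 213 ± 13.5 CPM at 16 weeks. Cacna1c averaged 199 ± 107 CPM (SD, n = 3), 169 ± 20.5 CPM, 309 ± 43.6 CPM and 312 ± 77.6 CPM at these times. From 0 to 2 weeks the log2 change was -0.28 for Kcnma1 (SE 0.22) and -0.23 for Cacna1c (SE 0.32), and both turned positive without control 0 weeks replicate 2 (0.08 and 0.27). For both genes the 3 controls of 8 weeks lay above the 3 controls of 2 weeks, as for 14.2% of tested genes. The log2 fold change from 2 to 8 weeks was 0.67 for Kcnma1 (SE 0.22, edgeR adjusted p = 0.160, unadjusted p = 0.00837) and 0.87 for Cacna1c (SE 0.32, edgeR adjusted p = 0.181, unadjusted p = 0.0146). Neither was called, nor was any other gene in edgeR (2881 at unadjusted p under 0.05, and 280 by DESeq2), and both were called when these 2 groups alone were fitted (edgeR adjusted p = 0.0274 and 0.0242), where 2.09% of the 14394 genes tested in that fit were called higher and 453 genes were called in all. From 8 to 16 weeks the log2 change in controls was -0.11 for Kcnma1 (SE 0.22) and 0.02 for Cacna1c (SE 0.32), and edgeR called 0.0788% of tested genes (12 genes). The change of Kcnma1 ran from -0.16 without control 16 weeks replicate 2 to -0.037 without control 8 weeks replicate 3. The number of genes called became 0, 6 and 31 when replicates 1, 2 and 3 of the 8-week controls were left out in turn, and 1, 129 and 0 for those of the 16-week controls. It was 24 without SCI 8 weeks replicate 2 and 101 by DESeq2.

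In SCI bladders neither gene was called between 2 and 8 weeks or between 8 and 16 weeks. Kcnma1 averaged 87.7 ± 13.5 CPM (SD, n = 3) at 2 weeks, 107 ± 34.5 CPM at 8 weeks and 126 ± 10.9 CPM at 16 weeks after SCI. Cacna1c averaged 173 ± 36.0 CPM, 175 ± 69.9 CPM and 210 ± 45.5 CPM (SD, n = 3). The log2 fold change from 2 to 8 weeks was 0.28 for Kcnma1 (SE 0.23) and 0.02 for Cacna1c (SE 0.32), and from 8 to 16 weeks it was 0.24 (SE 0.23) and 0.27 (SE 0.32), all with an edgeR adjusted p of 1.00. From 2 to 8 weeks both changes turned negative with SCI 8 weeks replicate 2 left out (-0.015 and -0.36), and that of Cacna1c also without replicate 3 of the 2-week SCI group (-0.15). From 8 to 16 weeks, leaving out SCI 8 weeks replicate 1 or 2 gave 0.082 or 0.53 for Kcnma1 and 0.080 or 0.64 for Cacna1c, which was at 0.15 without SCI 8 weeks replicate 3 and at 0.070 without SCI 16 weeks replicate 2. EdgeR called 0.0131% of tested genes between 2 and 8 weeks after SCI and 0% between 8 and 16 weeks (275 genes at unadjusted p under 0.05, and 1 by DESeq2). The 16- and 2-week SCI groups were not tested against each other. Kcnma1 lay higher at 16 weeks (118 to 138 CPM) than at 2 weeks (72.2 to 97.3 CPM) without overlap, as did 6.81% of tested genes, while Cacna1c overlapped. Cacna1c in SCI bladders at 8 weeks stood near the level of 2-week controls, while the controls of its own week were higher.

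Ordered by mean CPM, the groups ran for Kcnma1 from 8-week controls through 16-, 0- and 2-week controls to SCI at 16, 8 and 2 weeks, so that every control group stood above every SCI group. For Cacna1c the 16- and 8-week controls came first, followed by SCI at 16 weeks, 0-week controls, SCI at 8 weeks, SCI at 2 weeks and 2-week controls. In both orders every pair of neighbouring groups overlapped in range, so no neighbours were told apart by their spread. Counting error was small beside these spreads. The lowest count of either gene in a library was 652 and the highest 4802, which gives counting errors of 3.92% and 1.44%.

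The spread between animals was shared by both genes. The 0-week controls were the most dispersed, and their replicate 2 was highest for Kcnma1 (253 against 119 and 154 CPM) and for Cacna1c (318 against 108 and 171 CPM). SCI 8 weeks replicate 2 was likewise the highest of its group for both genes. Across the 12 controls, log2 CPM of Kcnma1 and Cacna1c had Pearson r = 0.93 (permutation p = 0.0001) and Spearman rho = 0.85 (permutation p = 0.00094), and r = 0.87 without the 2 libraries farthest from the median of Cacna1c. Across the 9 SCI bladders, r was 0.89 (permutation p = 0.0021) and rho 0.83 (permutation p = 0.00847), with r = 0.79 without the 2 farthest. Adjusted over these 2 relations, the p-values of r were 0.0002 and 0.0021 and those of rho 0.00188 and 0.00847. Both levels of a library share its total and scaling factor, and the control value includes the difference between weeks. These permutations moved values between weeks within an arm, so their p-values do not test the relation within a week. With each group's mean subtracted, r over the 21 libraries was 0.91. The SD within groups, pooled over the 7 groups, was 0.30 for Kcnma1 and 0.43 for Cacna1c on the log2 CPM scale and 0.20 for their log2 ratio.

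**Figure D4:**
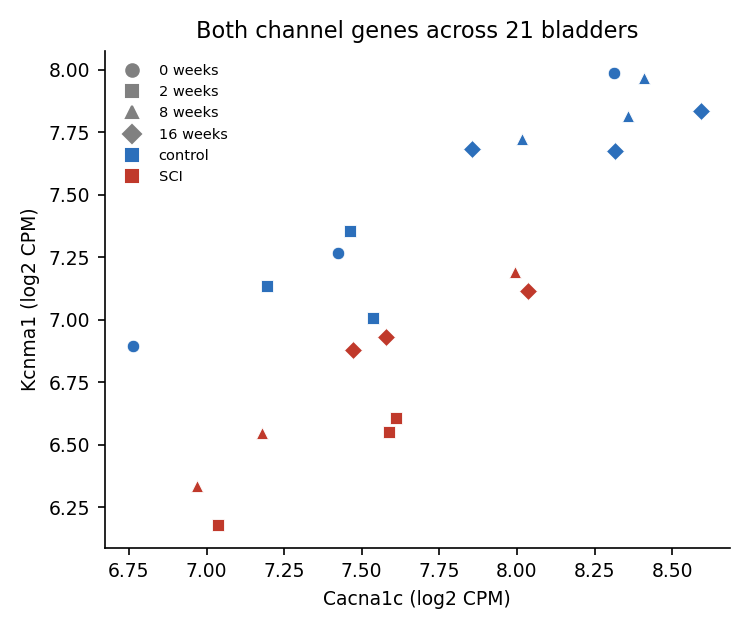
Kcnma1 against Cacna1c in log2 CPM, with a point for each of the 21 libraries, shaped by week and coloured by control (blue) or SCI (red). Both levels rise together within each arm (r = 0.93 in controls and 0.89 after SCI), and the SCI points lie lower in Kcnma1 than controls of like Cacna1c level.

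Among 13302 other genes with an average log2 CPM of at least 1, the gene most like Kcnma1 over the 21 libraries was ENSRNOG00000021090 (Pearson r = 0.97 of log2 CPM, 0.87 with group means subtracted). Its mean level was 94.6 ± 16.0 CPM in the 3 controls of 8 weeks and 37.6 ± 14.7 CPM in the 3 SCI bladders of that week (SD). The gene most like Cacna1c was ENSRNOG00000018110 (r = 0.99, and 0.98 with group means subtracted), with 879.5 ± 111 CPM in the same controls and 577 ± 194 CPM in the same SCI bladders. At 2 weeks its mean was 545.3 ± 52.3 CPM in controls and 589 ± 99.7 CPM in SCI bladders. By this measure 627 genes were more like Kcnma1 than Cacna1c was (r = 0.82), and 654 were more like Cacna1c than Kcnma1 was. With group means subtracted, the r of 0.91 between Kcnma1 and Cacna1c was above the 0.87 of ENSRNOG00000021090 with Kcnma1. It was below the 0.92 of the gene ranked second for Kcnma1 and below the 0.98 of ENSRNOG00000018110 with Cacna1c. All genes were not ranked with group means subtracted. The files do not pair these identifiers with symbols.

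**Figure D5:**
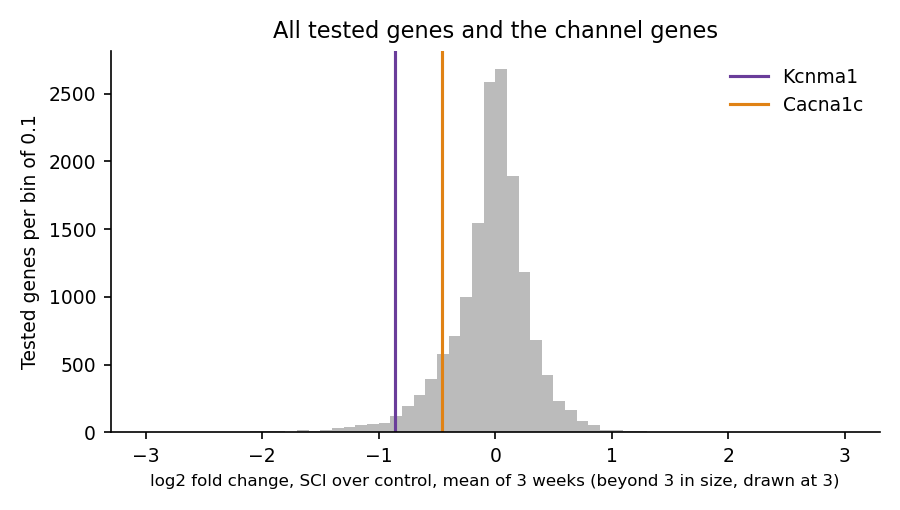
Number of the 15225 tested genes by log2 fold change of SCI over control, averaged over 3 weeks, in bins of 0.1, with lines at Kcnma1 (purple) and Cacna1c (orange). Kcnma1 at -0.86 lies in the left tail, with 2.56% of genes at or below it, and Cacna1c at -0.45 has 10.5% at or below it.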

How the data were processed

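Bladder RNA of 21 rats was sequenced by the authors as stranded, ribosome-depleted, paired-end libraries on an Illumina HiSeq instrument, with counts of both flow cells summed. The authors deposited raw, unscaled counts for each Ensembl gene. The submitters' processing notes name Trim Galore 0.6.10, STAR 2.7.10a, featureCounts 2.0.3 and the build Rnor_6.0; annotation release and strand setting are not given in the sources used here, so reads of overlapping or antisense genes may be shared. Groups came from sample titles, with a single batch in the labels.

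The table was filtered with filterByExpr (15225 of 32754 genes kept), scaled by TMM (factors 0.903 to 1.09) and fitted with edgeR 4.0.16 (R 4.3.3) by glmQLFit with 7 group means and 14 residual degrees of freedom, following the study's stated tool. Benjamini-Hochberg adjustment covered all tested genes of a comparison. Log2 CPM used a prior count of 2 and the ratio 0.5 added to each count. Correlations used 100000 permutations (SciPy 1.17.1). Tests were tested on simulated data. Alternatives, DESeq2 1.42.0 among them, are given in the closing section. Within groups, libraries differed by more than sampling noise (chi-square per degree of freedom 7.22 to 59.9), and each was counted once. The edgeR p-values set a difference against the spread between these libraries, estimated with information shared over all tested genes. The permutation p-values come from exchanged labels or shuffled values of these libraries.

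The genes, lists and comparisons were chosen with earlier results of these data known. Lists of channel subunits, other channels and cell type markers had been set by symbol, but the RefSeq table matched 0 identifiers of the count table, so none was run. The naming rule took both channel genes and, with no gene map, the gene of highest Pearson r for each.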

Additional observations from a re-analysis of the deposited data

How the results depend on the processing

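Alternatives were recomputed for each fold change, and the replicate numbers were not taken to pair animals, because deviations of same-numbered libraries from their group means correlated between -0.24 and 0.38 over 63 pairs (mean 0.02). Of 753 recomputed values, 712 kept their direction and side of the threshold, 20 passed the threshold in addition, 2 lost it and 19 changed sign, each of the last without a call. Unless the construction of an alternative (fewer samples) shows the cause, the cause was not tested.

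With a replicate block, the log2 fold changes of SCI against control were -0.76 for Kcnma1 at 16 weeks and -0.88 at 8 weeks and -0.49 averaged over weeks for Cacna1c, now called (edgeR adjusted p = 0.0325, 0.0411 and 0.0279), and Cacna1c changed sign at 2 weeks (-0.0044), in controls from 8 to 16 weeks (-0.0060) and in SCI from 2 to 8 weeks (-0.038). The block moved the number of genes called at 16 weeks from 855 to 1307. Without the 0-week controls, Kcnma1 at 16 weeks (-0.75), Cacna1c at 8 weeks (-0.82) and Cacna1c averaged (-0.45) were called. Fitting only the groups compared called Kcnma1 at 16 weeks (-0.75), Cacna1c averaged (-0.45), and the rise in controls from 2 to 8 weeks of Kcnma1 (0.66) and Cacna1c (0.86). DESeq2 called Kcnma1 at 16 weeks (-0.75). Library size only shifted the median log2 fold change of all genes by 0.19 at 8 weeks, 0.10 at 16 weeks and 0.11 averaged over weeks, turned the lower and higher calls from 782 and 499 to 653 and 2435 at 8 weeks, from 493 and 362 to 292 and 478 at 16 weeks and from 1876 and 1578 to 1272 and 3652 averaged, left Kcnma1 called at 8 weeks (-0.93) and averaged (-0.76), and changed the sign of its interaction of 16 with 2 weeks (0.038).

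Leaving out each library in turn gave ranges of -1.39 to -0.93 for Kcnma1 at 8 weeks, -0.83 to -0.70 for Kcnma1 at 16 weeks, -1.19 to -0.62 for Cacna1c at 8 weeks and -0.58 to -0.39 for Cacna1c averaged, and of -0.067 to 0.19 for Cacna1c at 2 weeks and -0.16 to 0.039 for the interaction of Kcnma1 at 16 with 2 weeks. For controls from 0 to 2 weeks the ranges were -0.49 to 0.075 (Kcnma1) and -0.52 to 0.27 (Cacna1c), with the sign turned in both by leaving out control 0 weeks replicate 2. For controls from 8 to 16 weeks the range of Cacna1c was -0.17 to 0.19, and for SCI from 2 to 8 weeks the ranges were -0.015 to 0.44 (Kcnma1) and -0.36 to 0.21 (Cacna1c). Over all alternatives the number of genes called ran from 0 to 60 at 2 weeks, 32 (without SCI 8 weeks replicate 1) to 3088 (library size only) at 8 weeks, 16 (without SCI 16 weeks replicate 1) to 2105 (only the groups compared) at 16 weeks and 2442 to 4924 averaged over weeks. It ran from 0 to 129 for controls from 8 to 16 weeks, 0 to 22 for SCI from 2 to 8 weeks and 0 to 26 for the interaction of 8 with 2 weeks. Both genes rest on at least 652 counts in a library, so depth limits these values less than the spread between animals.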
